A study of Drosophila melanogaster with 8 samples.

Results

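A set of 8 long genes of Drosophila melanogaster, Plc21C, CG42594, CG42260, CG44153, Fili, Pxn, qin and CG42342, carried more ATAC-seq peaks in fru+ neurons than in fru- neurons. They were chosen by measured values, the peak numbers themselves. Every peak that overlapped the gene body or the 1 kb on either side of it was counted in each of 4 peak lists, and the mean of both fru+ lists minus the mean of both fru- lists, called the excess here, had to reach 2.5. The 8 genes are part of 17 that reached this value, out of 10785 annotated genes with a peak in at least 1 list (0.158%). They are all at least 28610 bp long. The excess is therefore a description of why they are listed, and nothing is tested with it. What follows gives the regions that carry the additional peaks, their strength, and whether they were called in males, in females or in both.

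ATAC-seq uses the transposase Tn5 to insert sequencing adapters into open chromatin. The cells were neurons from the central brain of adults aged 2 to 7 days in a w1118 background, with the optic lobes cut away, sorted by flow cytometry on membrane GFP. Animals of all groups carried UAS-mCD8-GFP, MB247-Gal80 and Fru-GAL4 over a TM2 or TM6B balancer, so GFP followed transcription of fruitless (fru), and the Gal80 kept fru-transcribing Kenyon cells of the mushroom body out of the GFP-positive gate and hence in the GFP-negative pools. The 4 groups, fru+ and fru- cells of each sex, had 2 samples each, 8 in all, but 1 peak list each. No value below therefore carries a replicate error or a test. Where 4 values follow each other, male fru+ comes first and female fru+ second, then the fru- lists of males and females. Whether a difference between lists exceeds the spread between replicates cannot be stated. The lists are labelled as pooled, yet their peak names carry replicate 1 in males and replicate 2 in females. If the names hold, a difference between male and female lists cannot be told apart from a difference between replicates.

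The fru gene, through its male-specific transcripts, gives FruM, a BTB zinc-finger transcription factor made in the neurons that organise male courtship. Female neurons of the same lineages transcribe fru without making FruM. The genes described here belong to several unrelated families. Plc21C encodes a phospholipase C beta, the enzyme that cleaves a membrane phosphoinositide downstream of Gq-coupled receptors. CG42594 is predicted to encode a two-pore domain potassium channel of the kind that sets resting potential, and CG42260 a cyclic nucleotide-gated cation channel. Fili (Fish-lips) encodes a transmembrane protein with leucine-rich repeats, and Pxn encodes peroxidasin, an extracellular matrix peroxidase that crosslinks collagen IV. The product of qin is a Tudor-domain protein known from the piRNA pathway, which silences transposons in the germline. No role is given here for CG44153 and CG42342. Open stretches inside long introns, away from promoters, are where many enhancers of neuronal genes lie.

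Sequences are shown because the additional peaks lay mostly in intronic DNA and not at promoters. They are given for 6 of the genes. Fili and CG42260 are not shown, though they also had intronic regions in fru+ lists only. Each region shown is the strongest of this kind in its gene, except in CG42342, where the strongest is in the 3′ UTR and the other is shown. Each is the plus strand of dm6 (RefSeq Release 6 assembly), 5′ to 3′, 201 bases centred on the summit of the peak with the higher rank in a region that only fru+ lists contained. The Plc21C and Pxn regions were in both fru+ lists, the CG42594 region in female fru+ only, and the others in male fru+ only. Capitals mark CACACA or its reverse complement TGTGTG, and in Plc21C also CAGCTG, an E-box of the kind bound by basic helix-loop-helix factors.
Plc21C chr2L:337208-337408: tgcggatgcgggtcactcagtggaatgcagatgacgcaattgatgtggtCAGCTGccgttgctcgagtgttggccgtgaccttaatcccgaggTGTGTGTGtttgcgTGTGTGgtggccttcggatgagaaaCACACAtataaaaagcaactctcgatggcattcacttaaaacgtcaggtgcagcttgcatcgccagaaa
CG42594 chrX:4866969-4867169: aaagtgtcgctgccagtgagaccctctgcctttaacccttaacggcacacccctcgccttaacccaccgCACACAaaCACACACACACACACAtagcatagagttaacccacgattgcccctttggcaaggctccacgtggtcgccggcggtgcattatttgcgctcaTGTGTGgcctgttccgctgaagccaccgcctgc
CG44153 chr2L:10070586-10070786: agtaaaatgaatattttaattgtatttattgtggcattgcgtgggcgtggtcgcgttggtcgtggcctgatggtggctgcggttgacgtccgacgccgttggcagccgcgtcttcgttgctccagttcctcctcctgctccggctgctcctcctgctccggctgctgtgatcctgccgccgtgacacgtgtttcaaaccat
Pxn chr3L:2615511-2615711: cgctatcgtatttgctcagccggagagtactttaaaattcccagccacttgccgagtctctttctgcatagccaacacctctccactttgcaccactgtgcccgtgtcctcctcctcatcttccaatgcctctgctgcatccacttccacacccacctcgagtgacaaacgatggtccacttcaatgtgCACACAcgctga
qin chr3R:18603114-18603314: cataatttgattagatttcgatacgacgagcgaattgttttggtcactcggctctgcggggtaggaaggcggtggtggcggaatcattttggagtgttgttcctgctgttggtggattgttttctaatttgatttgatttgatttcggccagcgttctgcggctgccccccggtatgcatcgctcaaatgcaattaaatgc
CG42342 chr3R:16518269-16518469: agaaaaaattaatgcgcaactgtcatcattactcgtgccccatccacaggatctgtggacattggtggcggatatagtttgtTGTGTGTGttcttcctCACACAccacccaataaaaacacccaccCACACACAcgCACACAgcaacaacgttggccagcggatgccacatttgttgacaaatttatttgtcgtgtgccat

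Runs of CACACA stood out by eye in the Plc21C, CG42594 and CG42342 windows, and the motif was counted only after they had been read. On either strand it was present in 16 of the 29 summit windows of this kind in the 8 genes (55.2%, 95% Wilson interval 37.5 to 71.6), against 35.5% of windows over all 14709 regions of the genome and 38.1% over all regions in fru+ lists only. The windows from which the motif was picked are among the 29. The interval therefore cannot show an enrichment, and nothing is read from it. The palindrome CAGCTG was found in 5 of 29 windows (17.2%, interval 7.60 to 34.5), in 14.7% of all windows and in 12.1% of those in fru+ lists only. TAATTA, the core of many homeodomain sites and also a palindrome, was in 2 of 29 (6.90%, interval 1.91 to 22.0) in 6.40% of all windows and in 5.71% of those in fru+ lists only. Neither GAGAGA, the GAGA repeat bound by Trl, nor TGANTCA, an AP-1 type site, was present in any of the 29 windows (0%, interval 0 to 11.7 for each), where 14.4% and 2.92% of all windows held them, and 8.94% and 3.09% of those in fru+ lists only. The latter figures lie within the intervals, and the 14.4% for GAGAGA over all windows lies above its interval. The 29 windows come from genes chosen on these peaks, so nothing is read from either. Both strands were searched, and motifs could overlap each other. The median GC content was 51.2% in the 29 windows and 47.8% over all regions. It was not taken over all regions in fru+ lists only, so nothing particular to the 29 is read from it. None of the 29 regions had a copy elsewhere in the assembly that matched at 90% identity or more over 50% of its length or more.

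The lists were similar in size but differed in depth. They contained 11295 and 11217 peaks in the male and female fru+ lists, and 11206 and 11602 in the fru- lists. The background of each library, recovered from the peaks as fragments stacked at a typical position, was 17.96, 14.25, 18.87 and 16.39, so female fru+ was the shallowest. At that background a peak was called once its summit reached a fold of 2.00, 2.10, 1.96 and 2.01, equal to 37, 31, 38 and 34 stacked fragments. The free-text descriptions of the male fru- samples and of the female fru+ samples were exchanged relative to their titles. The X chromosome share of peaks (15.0% and 14.9% in the lists titled male, 20.3% and 20.1% in those titled female) and the bases covered at the male dosage compensation gene roX1 (1725 and 1711 against 240 and 246) went with the titles used here. All 5 neuron markers had a promoter peak in every list. Of 5 glial genes, repo and moody had no peak in any list, alrm had 1 in male fru+ alone, Gs2 had 1, 2, 2 and 1, none at its promoter, and gcm had 1 promoter peak in every list but male fru-. The part of glial cells in the results below was not tested.

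In total the 8 genes held 60 peaks in male fru+ and 51 in female fru+, but 35 in the fru- list of either sex. The fru+ lists thus contributed 111 of 181 peaks (61.3%), where all genomic peaks divide at 49.7%. A share above 50% was fixed by the way the genes were chosen, and nothing is read from it. In males the difference was 25 peaks and in females 16. If the replicate names in the lists hold, sex and replicate cannot be told apart in this and the following counts by sex. The fru+ share ranged from 56.4% in CG42260 to 87.5% in qin. The plot of peak numbers shows how differently the genes arrived at a similar excess.

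**Figure D1:**
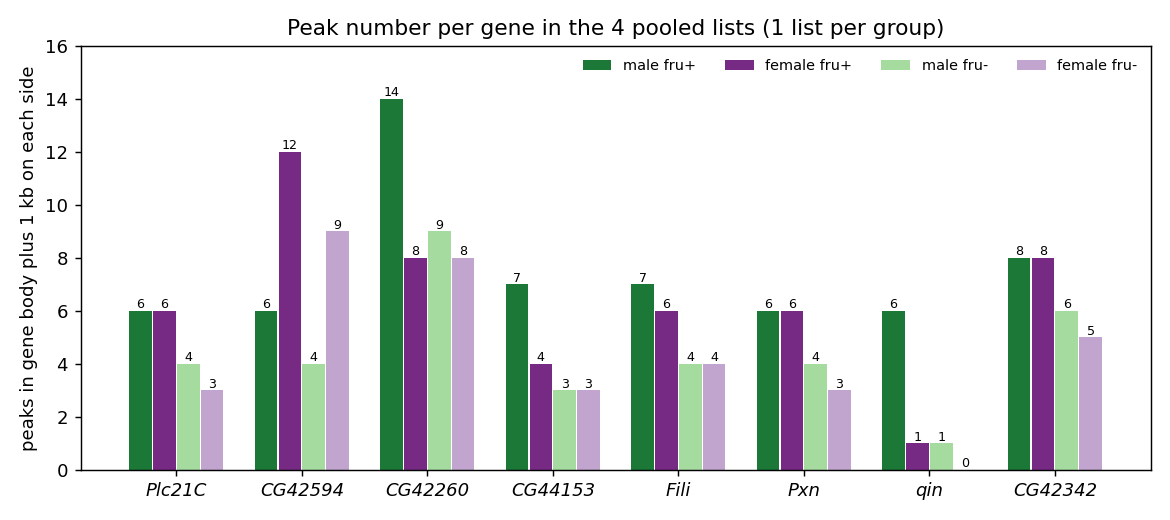
Number of peaks (vertical axis) that overlapped each gene body plus 1 kb on each side, in the 4 lists, 1 bar per list. The fru+ bars of Plc21C, Pxn and CG42342 are equal in both sexes, CG42260 and qin stand out in male fru+ (14 and 6 peaks), and CG42594 has more peaks in both female lists.

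By sex, the genes fell into those with 2 or more additional fru+ peaks in both sexes and those without. Plc21C, CG42594, Fili, Pxn and CG42342 had them in both. CG42260, CG44153 and qin had them in males only, with differences of 5, 4 and 5 peaks in males and of 0, 1 and 1 in females. Among the 687 genes with a peak that are at least as long as the shortest of the 8, a difference of 2 or more was found in 14% for the male pair, in 8.44% for the female pair and in 1.89% for both. These percentages are the background for counts of 8 of 8, 5 of 8 and 5 of 8, which the selection on the mean itself favours and from which nothing is read.

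All peaks that overlapped across lists by at least 1 bp were merged into regions, giving 72 regions in the 8 genes. Of these, 29 were present in fru+ lists only (40.3%, where all regions give 14.5%), 1 was in a fru- list only (1.39%, where all give 10.9%), and 24 were in all 4 lists (33.3%, where all give 56.1%). These are the same peak calls that made the excess, so the surplus of regions in fru+ lists and the lack of regions in fru- lists follow from the choice of genes. They show where the additional peaks lie and support nothing. The 29 comprised 19 regions of male fru+ only, 4 of female fru+ only and 6 of both fru+ lists. Of the 4 regions of female fru+ only, 3 lay in CG42594, the only X-linked gene of the 8, and 1 in CG44153. Female lists had a higher share of X peaks, and its part in this count was not tested. The 6 regions of both fru+ lists made up 8.33% of the regions, where all regions give 1.71%. So 25 of the 29 had a peak in male fru+ and 10 in female fru+. Over all 2136 regions in fru+ lists only, 1234 were of male fru+ only, 651 of female fru+ only and 251 of both. Male fru+ only was thus the largest part there too. The female fru+ list was shallower than the male fru+ list, with a background of 14.25 against 17.96. The part of depth in these counts was not tested. Counted within each sex, 29 regions had a peak in male fru+ and none in male fru-, and 4 had the opposite. In females 16 had a peak in female fru+ and none in female fru-, and 2 had the opposite. The choice of genes favours these within-sex counts as well, and nothing is read from them.

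**Figure D2:**
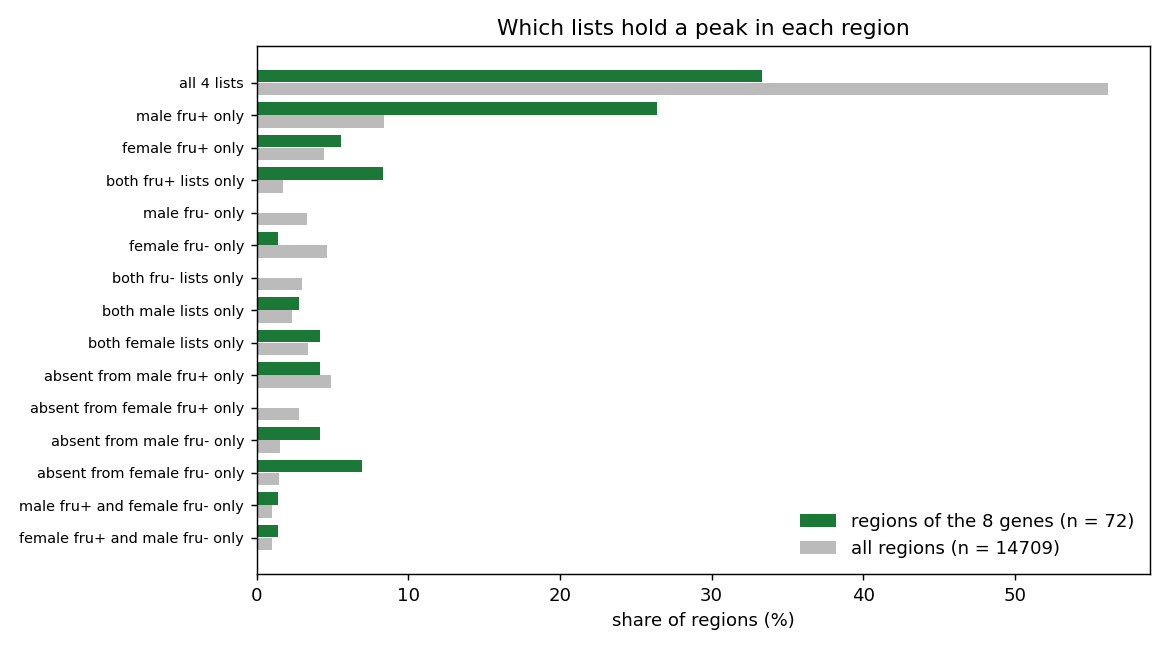
Share of regions (horizontal axis, in %) by the lists that held a peak in them, for the 72 regions of the 8 genes and for all 14709 regions. The genes were chosen on these peak calls, so the difference between the bars is a description. Male fru+ only makes up 26.4% of their regions against 8.39% of all regions, and female fru+ only 5.56% against 4.43%. Of the 4 regions of female fru+ only in the 8 genes, 3 are in the X-linked CG42594.

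The additional regions were mostly weak and intronic, as such regions were across the genome. Of the 29, 26 lay in introns, 2 overlapped an exon, 1 lay in the 3′ UTR of CG42342 and 0 came within 50 bp of a transcription start. Of the 24 regions in all 4 lists, 9 were at a start site and 12 in introns. Over the 1382 regions of the genome that were in fru+ lists only and lay in a gene or at a start site, 72.7% were intronic and 8.76% at a start site. Over the 7166 such regions in all 4 lists the shares were 24.5% and 68.6%. The median of the highest fold was 2.95 (range 1.92 to 4.69) in the 29 regions and 5.12 in the 24. The strength percentile, the rank of a peak by −log10 q within its list, had a median of 20.5 (range 0.0531 to 48.8) and 55.6 respectively, and the median width was 325 bp and 658 bp. All 2136 regions in fru+ lists only had a lower median fold of 2.69, a percentile of 13.9 and a width of 276 bp. The highest fold exceeded 2.10, the strictest of the 4 limits given above, in 27 of 29 regions. In 9 it was at least 1.5 times that limit, and in 11 it was 3 or more. The distance to the nearest peak of a fru- list had a median of 3477 bp (range 260 to 26365 bp) and was within 1000 bp for 6 regions.

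**Figure D3:**
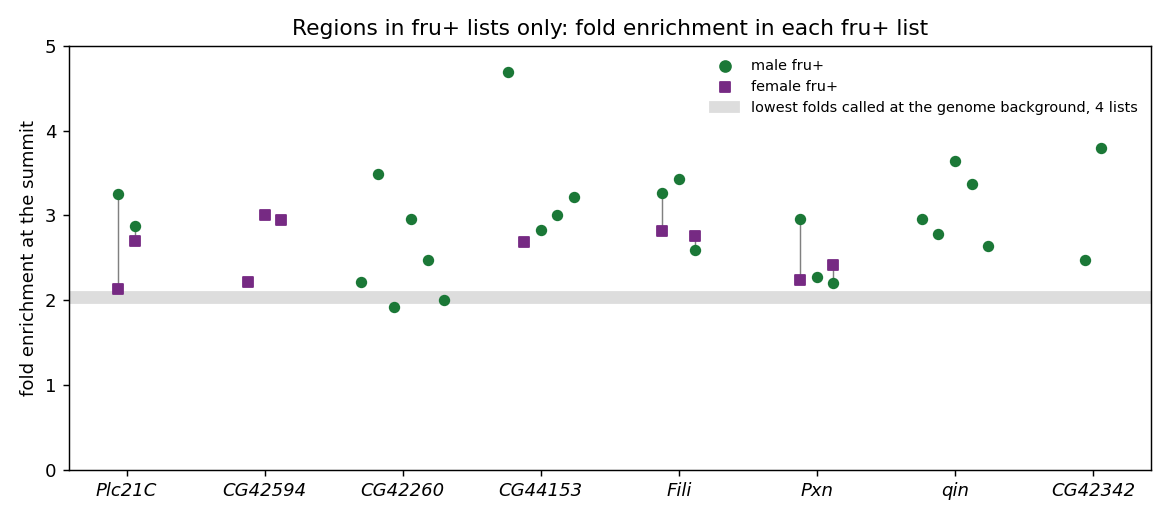
Fold enrichment at the summit (vertical axis) of the 29 regions found in fru+ lists only, by gene. Circles are male fru+, squares female fru+, and a grey line joins the values of 1 region; the grey band spans the lowest folds called at the genome background in the 4 lists (1.96 to 2.10). Most regions lie between 2 and 3.5, and the highest is a CG44153 region at 4.69.

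**Figure D4:**
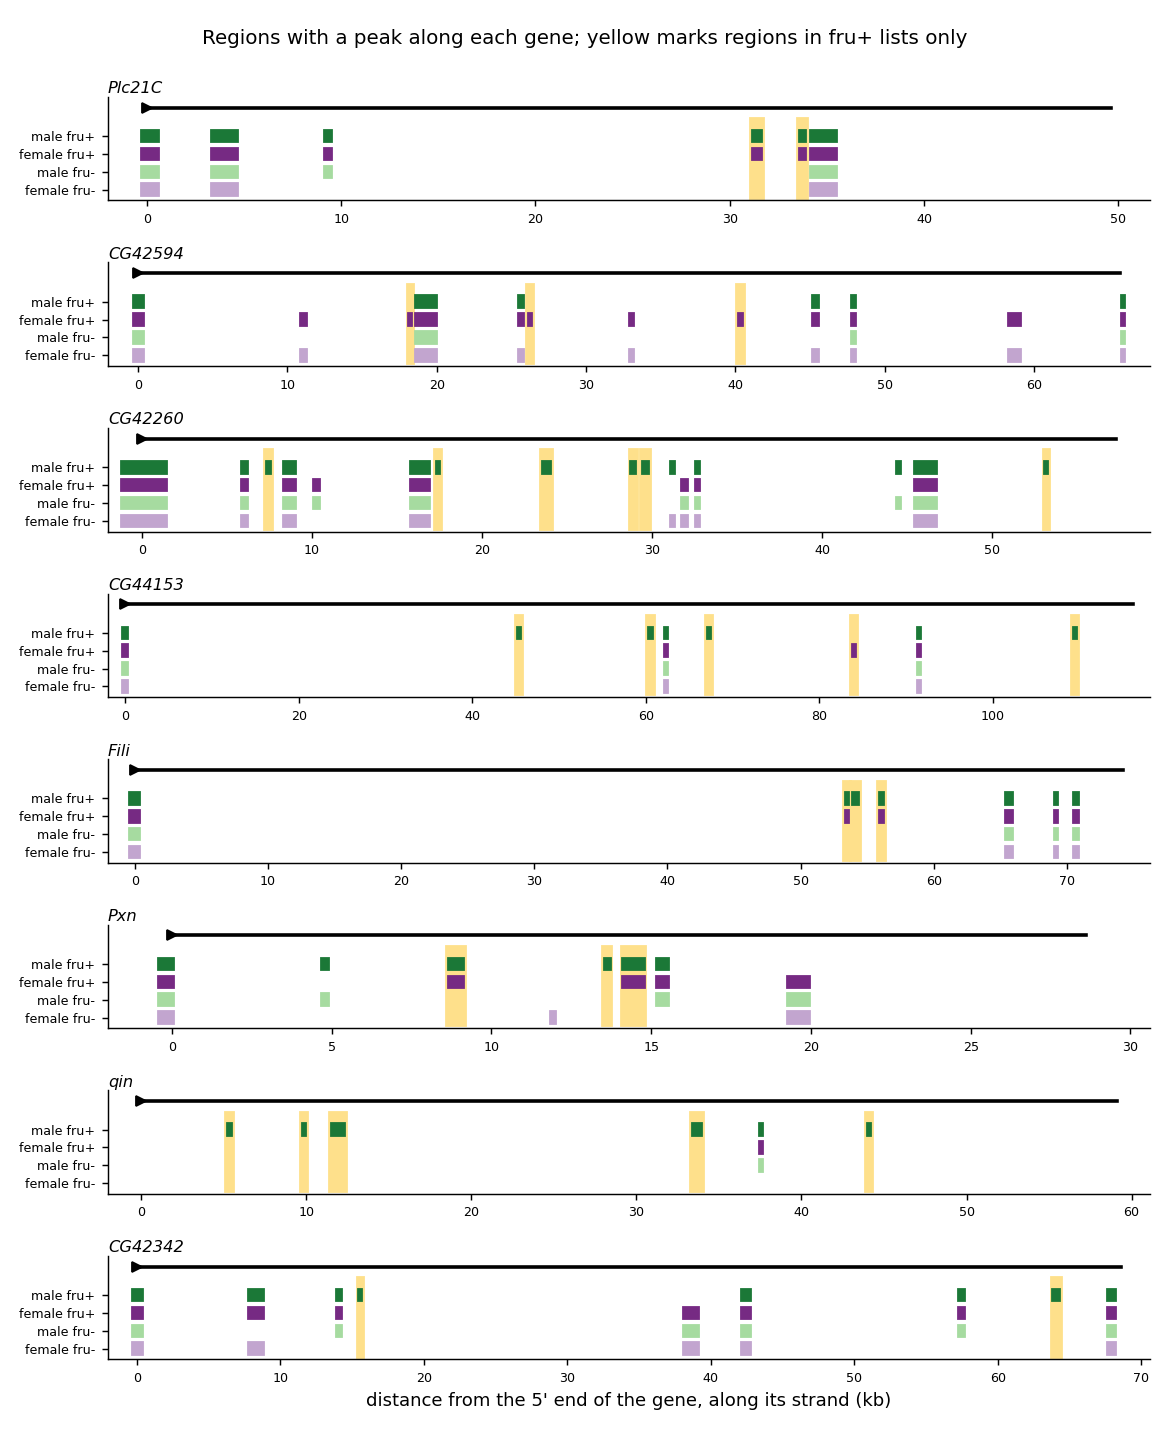
Position of every region along each gene (horizontal axis, kb from the 5′ end of the gene along its strand) with a block in each list that held a peak there. Blocks span the merged region, the narrowest being drawn slightly wider than scale, and yellow marks regions in fru+ lists only. These are absent from the promoters at 0 kb and form close groups in Plc21C and Fili, while in qin they stretch over 5.5 to 44.1 kb.

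Plc21C (FBgn0004611, chromosome 2L from 305935 to 355566, plus strand) held 6 peaks in each fru+ list, 4 in male fru- and 3 in female fru-. Both additional regions were called in both sexes and lay close together, 31373 and 33754 bp from the 5′ end. The first, at 337074 to 337611, had a fold of 3.25 in male fru+ (78 stacked fragments over a local background of 23.3) and 2.14 in female fru+ (38 over 17.3), the latter just above the limit. It overlapped an exon of Plc21C, but its summit was intronic. The second, at 339507 to 339869, had folds of 2.87 and 2.69 and ended just before a wide region that all 4 lists contained. The promoter regions were in all 4 lists, with folds of 6.59, 6.35, 7.24 and 6.76 at the stronger of them, where a start site of lncRNA:CR43719 also lies. A further region, 9227 bp into the gene, was missing from female fru- alone.

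The Fili locus (FBgn0085397, chromosome 2R from 21872030 to 21946259, plus strand) had 7, 6, 4 and 4 peaks. Its additional regions were likewise clustered, with all 3 summits between 53.5 and 56.0 kb from the 5′ end in intronic DNA. The regions starting at 21925351 and 21927952 were in both fru+ lists, with folds of 3.27 and 2.82 for the former and 2.60 and 2.75 for the latter. Between them lay a region of male fru+ only, at 21925902 to 21926405, with a fold of 3.43. The promoter was far stronger and nearly level, with folds of 14.6, 13.8, 13.9 and 14.5.

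Pxn (FBgn0011828, chromosome 3L from 2601455 to 2630064, minus strand) had 6, 6, 4 and 3 peaks. The region at 2615269 to 2615965 was in both fru+ lists, with 106 stacked fragments over 35.2 in male fru+ (fold 2.96) and 53 over 23.1 in female fru+ (fold 2.24). Another at 2620929 was in both as well (folds 2.20 and 2.42), and a region at 2616335 was in male fru+ only (2.27). Pxn also contained the 1 region of the set found in a fru- list only, at 2618056 to 2618236 in female fru-, with a fold of 1.84. At its promoter the fru+ folds, 4.78 in male and 3.93 in female, were both above the fru- folds of 3.22 and 3.09. In female fru+ 2 of the 6 peaks fell in a single region at 2610105 to 2610807, so that list had peaks in 5 regions.

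CG42342 (FBgn0259244, chromosome 3R from 16502770 to 16571363, plus strand) held 8, 8, 6 and 5 peaks, an even difference by number that came from different places in each sex. Of its 9 regions, 2 were in fru+ lists only, both in male fru+. The intronic region at 16518247 had a fold of 2.48, and the region at 16566573 to 16567118, in the 3′ UTR, had a fold of 3.80 with 71 stacked fragments. A region at 16510490 was absent from male fru- alone. In females the difference was made by regions that male fru- also contained (16516678 and 16560001, absent from female fru- only) and by a region at 16540801 to 16541914, absent from male fru+, where female fru+ had 2 peaks. A shared region at 16544878 had higher folds in the fru+ lists, 4.56 and 3.33, than in the fru- lists, 2.64 and 3.05.

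In CG42594 (FBgn0260971, X chromosome from 4840833 to 4906575, plus strand) the lists held 6, 12, 4 and 9 peaks, so the female lists exceeded the male ones by more than fru+ exceeded fru-. The 3 regions in fru+ lists only were all in female fru+, at 4858966 (fold 2.21), 4866963 (3.01, 48 stacked fragments over 15.3) and 4880979 (2.95). Another 3 were in both female lists only. In males the difference came from regions at 4866285 and 4885952, which every list but male fru- contained, with male fru+ folds of 2.27 and 2.43. The higher number in females goes with the higher share of X peaks in female lists given above, and the part of that share in this count was not tested. The promoter was among the strongest regions of the set, with folds of 9.65, 13.3, 11.2 and 12.8.

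qin (FBgn0263974, chromosome 3R from 18591027 to 18650137, plus strand) had 6 peaks in male fru+, 1 each in female fru+ and male fru-, and 0 in female fru-, the largest excess of the 8, at 3. It was the only member without a promoter region of its own. The 1 region present in several lists, at 18628438 to 18628724, overlapped the start of tRNA:Pro-TGG-1-5, with folds of 4.80, 4.196 and 4.48 in the lists that held it. The other 5 regions were in male fru+ alone. They lay at 18596260, 18600788, 18602530, 18624413 and 18635002, with folds of 2.95, 2.78, 3.64, 3.38 and 2.64. The strongest, 863 bp wide, reached 68 stacked fragments, where a male fru- peak at the genome background would have needed 38. The first 3 also lie within CG14304 and the last in CG14301, genes nested in qin or overlapping it, so a peak cannot be given to qin alone.

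qin lies 45440 bp from fru on the same chromosome, and fru is the locus whose transcription defined the sort. At fru the lists held 17, 13, 7 and 6 peaks, an excess of 8.5, and 8 of its 22 regions were in male fru+ only. The DNA between both genes held 5, 3, 3 and 3 peaks in 5 regions, 2 of male fru+ only and 3 of all 4 lists. Peaks restricted to male fru+ occurred in fru, in qin and in between, in 8, 5 and 2 regions, out of 22, 6 and 5. Over all regions of the genome, 8.39% were of male fru+ only. Both genes reached the threshold by their peak numbers, which favours such regions. A link between the neighbouring loci was not tested.

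CG42260 (FBgn0259145, chromosome 2R from 22740999 to 22798289, minus strand) held 14, 8, 9 and 8 peaks, so female fru+ had no more than female fru-. All 6 regions in fru+ lists only were in male fru+, at 22744976, 22768450, 22769237, 22774204, 22780774 and 22790688, with folds of 2.21, 3.49, 1.92, 2.95, 2.48 and 2.00. The region at 22768450 to 22768897 had 70 stacked fragments over 19.3. The region at 22769237 had 42 over 21.4 (−log10 q 3.33), and the region at 22790688 had 70 over 34.5 (−log10 q 6.08). The folds of the last 2 were at or below the lowest called in male fru+ at its genome background of 17.96. Their local background was higher, so that limit does not apply to them directly. Of its 6 regions in all 4 lists, those at 22789242 and 22792077 had both fru+ folds above both fru- folds (3.34 and 3.26 against 3.06 and 2.88, and 3.66 and 2.998 against 2.79 and 2.96). The promoter region, shared with blw, had folds of 4.88, 4.95, 5.70 and 5.81.

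CG44153 (FBgn0265002, chromosome 2L from 10064121 to 10180256, minus strand) is the longest of the 8 at 116136 bp and had 7, 4, 3 and 3 peaks. The 3 regions in all 4 lists included its promoter, with folds of 15.6 in each list. Of the other 5, the region at 10070539 to 10070982 was the strongest of the 29, with 88 stacked fragments over a background of 17.96 in male fru+ (fold 4.69, percentile 48.8) and no peak in the other lists. A male fru- peak there would have needed 38 fragments at the genome background. Further regions of male fru+ only lay at 10112896, 10119477 and 10134789 (folds 2.83, 3.01 and 3.22), and 1 of female fru+ only at 10096124 (2.69). Those at 10096124, 10112896 and 10119477 also lie within CG34109. The 5 were spread from 45.4 to 109.6 kb from the 5′ end.

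Peak height was compared as well, in the regions that all 4 lists contained. Both fru+ folds were above both fru- folds in 4 of the 24 shared regions, and below them in 5. Over all 8256 shared regions the figures were 8.35% and 31.3%. The 4 were the regions of CG42260, CG42342 and the Pxn promoter already given. Bases covered by peaks, which count width as well as number, were higher in both fru+ lists than in both fru- lists for Plc21C (4053 and 3898 against 2771 and 2338 bp), CG44153 (2713 and 1511 against 1402 and 1232), Fili (3005 and 2274 against 1975 and 1895), Pxn (2259 and 1762 against 1427 and 871) and qin (2452 and 230 against 185 and 0). For CG42260 they were 7661 and 6390 against 6798 and 6225, for CG42594 2228 and 5068 against 1729 and 4216, and for CG42342 3403 and 3972 against 3536 and 2642, so that the groups overlapped. The covered bases are the widths of the same peaks that made the excess. A higher figure in fru+ lists is therefore favoured by the choice of genes, and nothing is read from it.

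An excess of this size in either direction was uncommon among genes of this length. Among the 687 genes at least as long as the shortest of the 8, 16 reached 2.5 in favour of fru+ (2.33%) and 33 in favour of fru- (4.8%). Any excess above 0 was found in 13.8% of the 10785 genes. Besides fru, the other genes at 2.5 or more were sm (smooth, an RNA-binding protein, 20, 16, 14 and 14 peaks, excess 4), rgn (10, 6, 4 and 6, excess 3) and, at 2.5, Trim9 (a ubiquitin ligase), RapGAP1 (a GTPase activator for Rap), dpr11 (an immunoglobulin-domain surface protein), tinc, Src42A (a tyrosine kinase) and betaTub97EF (a beta-tubulin). All of the 8 genes but qin were exactly at the threshold, and 26 genes were just below it at 2. The longest of those were lncRNA:CR44357 (13, 18, 12 and 15 peaks), dnc (17, 25, 15 and 23), luna (18, 13, 13 and 14), Sema1a (20, 15, 15 and 16) and SLO2 (12, 12, 11 and 9).

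Relatives in the same pathway or family were listed for 6 of the genes, all but CG44153 and CG42342. The 6 were chosen for their excess and the relatives were not, so the values are given side by side only. Of 12 other phospholipase C and Gq pathway genes with a peak, 3 were above 0, 7 at 0 and 2 below. norpA, the phospholipase C of phototransduction, had 9 peaks in every list. None of 7 other two-pore potassium channel genes was above 0 and 2 were below, and all 4 other cyclic nucleotide-gated and HCN channel genes were at 0. In the piRNA pathway 1 of 8 others was above 0 and 6 were at 0. Among 12 other leucine-rich repeat surface protein genes, 1 was above 0, 5 at 0 and 6 below, and among 5 other basement membrane genes, 4 were at 0 and 1 below. The values of these relatives lay between −1 and 0.5, and the median over all genes was 0. Many of these relatives are shorter than the 8 genes and had fewer peaks.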

How the data were processed

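ATAC-seq of sorted central brain neurons was analysed from 4 deposited peak lists, 1 per group, with groups taken from the sample titles. According to the study's methods and processing notes, the authors trimmed reads with cutadapt (discarding those under 18 bases), aligned pairs to dm6 with Bowtie2 (fragments up to 1000 bp), used Picard and SAMtools (mapping quality 30) and called peaks with MACS2 without its shifting model at an FDR of 0.001. Versions, and any shift to the Tn5 cut site, are not given in the sources used here. The labels call the lists pooled, yet peak names carry replicate 1 in male and replicate 2 in female lists. If the names hold, sex and replicate cannot be told apart.

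The deposited fold is the ratio of summit pileup to local background, each with 1 added. Each p-value and q-value was deposited as its −log10, the integer score follows from the q-value and served only to check the layout, and the summit is a distance from the peak start. Pileup and background were solved from fold and p-value for peaks under −log10 p of 150 (tolerance 0.01), which succeeded for 9800 of 9800, 10178 of 10184, 9195 of 9196 and 9848 of 9850 peaks. Stacked fragments here means this pileup, whether MACS2 stacked pairs or single reads, which is not given in the sources used here.

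Genes came from Ensembl release 115 on the same assembly as dm6. Peaks were counted in gene bodies with 1 kb flanks, merged into regions at 1 bp of overlap and called promoter within 50 bp of a start site. Region folds are the highest of a list's peaks there. Python 3.11.15, NumPy 2.4.6, SciPy 1.17.1, matplotlib 3.10.9 and BLAST 2.17.0 were used. Counting and recovery were tested on simulated data. The genes, lists and alternatives were chosen with earlier results of these data known. All 8 genes, every other gene at the threshold, the 5 longest genes just below it and fru were named, and each gene's strongest regions in fru+ lists only and any region in fru- lists only. No test between groups was possible. Wilson intervals (95%) cover counting error only.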

Additional observations from a re-analysis of the deposited data

Results flagged for a closer look

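At 2 weak regions of CG42260 the sexes went opposite ways, so that each sex had a peak in 1 sorted group and none in the other. The region at 22766966 to 22767209 was called in male fru+ (fold 2.48) and female fru- (fold 2.90) only. The region at 22787834 to 22788223 was called in female fru+ (fold 2.92) and male fru- (fold 2.502) only. With 1 list per group these differences between the sexes were not tested. Each of these patterns was found in 1 of the 72 regions of the chosen genes (1.39%). Over all 14709 regions the first pattern was found in 149 (1.01%) and the second in 150 (1.02%). The shares were thus close to those of the genome, and nothing particular to CG42260 is read from them.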

How the results depend on the processing

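Across 10 alternatives, 107 of 112 recomputed values stayed within 1.5 times the count or within the interval of the share, and 5 moved. Most of these values are fru+ shares of the chosen genes, judged against wide intervals (52.9 to 97.8% for qin). A fall from 8 genes to 6 also counts as unmoved, so the total says little on stability. All genes but CG44153 and qin fell below 2.5 in at least 1 setting. With peaks of −log10 q of at least 5 only, 4 of the 8 genes kept an excess of 2.5 or more (CG42594, CG44153, Pxn and qin), and with peaks closer than 200 bp joined, 5 did (all but Plc21C, CG42594 and Pxn). With lists of equal length 6 did, CG42260 and CG42342 falling to 2, and with merged regions in place of peaks 6 did, Pxn and CG42342 falling to 2. When a region had to be covered by a peak over at least 50% of its length to count as present, regions of both fru+ lists only fell to 3 and those of female fru+ only came to 8. Without peaks at the start of another gene, an alternative chosen after seeing the data, the fru+ share of qin was 100% and Plc21C fell to 2, which left 7 genes. The lowest excess of any of the 8 genes was 1.5, for CG42260 under the stricter threshold, while qin and CG44153 were at 2.5 or above in every setting. With no flank, a flank of 5 kb or counting by summit all 8 genes stayed. Counting a region as present when a peak lay within 200 bp left the 4 region counts as they were (29, 19, 4 and 6). No paired analysis was possible because each group had 1 list, and leaving out a replicate was not possible for the same reason. The lists record calls and not coverage, so signal below a list's limit was not analysed here.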
